A study of Mus musculus with 21 samples.

Results

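The 10 genes described here store, import, export and recycle iron in the cell: the ferritin subunits Fth1 and Ftl1, the transferrin receptor Tfrc, the iron exporter Slc40a1, the iron regulatory proteins Aco1 and Ireb2, the ferritin cargo receptor Ncoa4, the heme oxygenases Hmox1 and Hmox2, and ferrochelatase (Fech). They are the rows with these symbols among the 49510 genes of the count table. The symbols were chosen by earlier results of these libraries, their levels and differences between the groups below, with no threshold given, so the levels and p-values here describe them and support nothing on their own. RNA was sequenced from T cells of Foxp3-GFP mice at 8 weeks of age, 7 days after myocardial infarction (MI), in 21 libraries. Regulatory T cells (Tregs, the Foxp3-expressing suppressive CD4+ lineage) were taken from 4 sites: heart, spleen, heart-draining mediastinal node (MLN) and non-draining node (NDLN). Conventional T cells (Tconvs) came from heart, spleen and NDLN, which gives 7 groups of 3 libraries. Every group came from mice with an infarct, and no group from uninjured mice was analysed here. The labels do not say that the 3 libraries of a group came from separate animals, so each p-value measures the spread between these libraries, which may be technical.

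Iron enters a T cell bound to transferrin through the transferrin receptor. What the cell does not use at once is held in ferritin, a shell of heavy chains, which oxidise the metal, and light chains, which help to lay down its mineral core. When iron is scarce, the iron regulatory proteins bind a hairpin called the iron-responsive element: bound near the start of ferritin mRNA it blocks translation, and bound in the 3' UTR of transferrin receptor mRNA it keeps the message from being degraded. Ferritin genes are also induced through the oxidant-sensing factor Nrf2 (Nfe2l2), so an mRNA count reads transcription and decay but not the translational step.

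That hairpin is shown because 4 of the members share it. It was searched for on the sense strand only of annotated transcripts, as a C, 5 stem bases, the loop CAGTGN and 5 stem bases, with at least 4 of the 5 paired and G-T pairs allowed. A match was found in 4 of the 10 members (40%) and in 10.7% of 21866 protein coding genes. In the sequences, from GENCODE M21 transcripts on GRCm38, capitals mark the unpaired C and the loop, and all 5 stem bases pair in each.
Fth1, 5' UTR, chr19:9982732-9982761, plus strand: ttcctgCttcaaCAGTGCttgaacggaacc
Ftl1, 5' UTR, chr7:45459778-45459807, minus strand: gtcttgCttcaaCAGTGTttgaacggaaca
Slc40a1, 5' UTR, chr1:45925464-45925493, minus strand: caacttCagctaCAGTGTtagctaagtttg
Tfrc, 3' UTR, chr16:32631219-32631248, plus strand: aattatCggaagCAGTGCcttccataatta
Tfrc, 3' UTR, chr16:32631598-32631627, plus strand: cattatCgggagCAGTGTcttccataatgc
Tfrc, 3' UTR, chr16:32631663-32631692, plus strand: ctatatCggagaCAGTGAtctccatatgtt
Tfrc, 3' UTR, chr16:32631710-32631739, plus strand: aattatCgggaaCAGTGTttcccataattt
The ferritin and exporter transcripts hold 1 match each near their start, and Tfrc holds 4 behind its coding part. A match describes the letters, not a bound protein. Of 58 other iron and heme genes, 11 (19%) held a match.

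**Figure D1:**
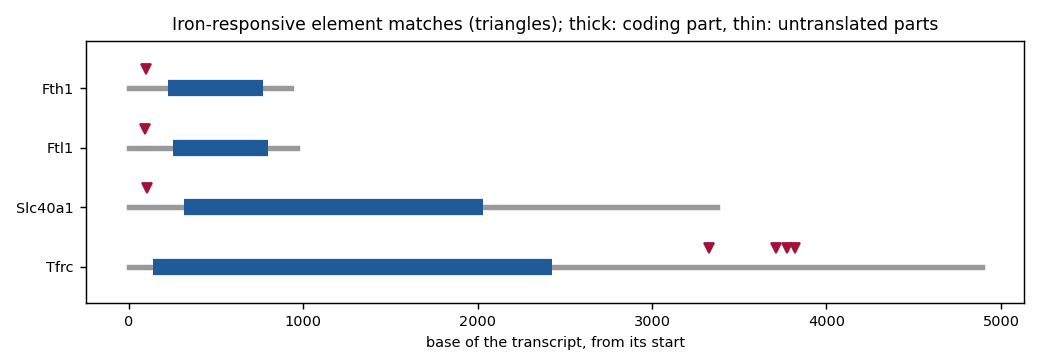
Position of iron-responsive element matches (triangles) along the transcripts of 4 members, in bases from the transcript start; the thick bar is the coding part. The single matches of Fth1, Ftl1 and Slc40a1 lie before the coding part and the 4 of Tfrc behind it.

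Libraries held 14515387 to 28323649 counts. Levels are given in CPM, each count divided by the library size after TMM scaling, as mean ± SD over 3 libraries. A count of 0 allows up to 3 counts, which covers counting error only, since reads without molecular identifiers are not independent molecules. A set of 5 libraries stood apart: in MLN Treg 1 and 2, heart Treg 1, and heart Tconv 1 and 2, the mitochondrial ribosomal RNAs took 0.0568% to 0.102% of counts, against 0.954% to 12.3% in the other 16. All 5 come from heart and MLN, so some results on these tissues are also given within a set. Those of the wider iron list are not divided by set. No lymphoid Tconv library belongs to the 5, so heart and set are partly confounded among Tconvs. In CPM of the library total, without TMM factors, the Treg markers Foxp3, Il2ra, Ikzf2 and Ctla4 summed to 1324 to 2949 CPM in Tregs and 39.8 to 297 CPM in Tconvs, and 5 T cell markers to 3937 to 7670 CPM in all libraries.

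Ferritin heavy chain mRNA (Fth1; ENSMUSG00000024661, chr19:9980598-9985098) was the most abundant of the members per kilobase of transcript and was higher in heart Tregs than in Tregs of any lymphoid organ. Heart Tregs held 9750, 8243 and 10140 CPM in libraries 1 to 3 (9377 ± 1001). MLN Tregs held 2123, 4394 and 3457 CPM (3325 ± 1141), NDLN Tregs 3502, 2892 and 2788 CPM (3061 ± 385.6), and spleen Tregs 3087, 2365 and 1966 CPM (2473 ± 568.5). The lowest heart library thus lay above the highest of the 9 lymphoid Treg libraries, and the lymphoid groups overlapped each other. Fth1 alone took 0.777% to 1.18% of all counts in heart Tregs.

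By edgeR's quasi-likelihood test with Benjamini-Hochberg adjustment over 14996 genes, Fth1 was 3.79-fold higher in heart than in spleen Tregs (log2 fold change 1.92, SE 0.28, adjusted p = 0.0037). Against NDLN Tregs it was 3.06-fold higher (log2 1.62, SE 0.28, adjusted p = 0.0096), and against MLN Tregs 2.82-fold higher (log2 1.5, SE 0.27, adjusted p = 0.047). These 3 comparisons share the heart libraries. The size changed little between library sets: against MLN Tregs the log2 difference was 1.41 within the larger set and 1.53 within the smaller, each with 1 library in an arm, which was assumed to vary like the other groups and left no call (adjusted p = 0.36 and 0.63). Against spleen Tregs the call held without each library in turn (adjusted p up to 0.04). Against NDLN Tregs it was lost without NDLN Treg 2 (adjusted p = 0.067) or 3 (0.057), and against MLN Tregs without MLN Treg 1 (0.2), MLN Treg 3 (0.17), heart Treg 2 (0.086) or heart Treg 3 (0.13) and with RLE scaling (0.053), while the log2 difference stayed between 1.24 and 1.75 in all of its alternatives.

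In bulk libraries, a change in the mix of cells and a change in RNA per cell cannot be told apart, and macrophages are known for high ferritin. Of 10 macrophage and monocyte markers, 7 had 0 counts in all heart Tregs, Csf1r, Adgre1 and C1qa among them. Lymphoid Tregs also lacked some: 6 markers had no counts in the NDLN group, 4 in the MLN group and 2 in the spleen group. Csf1r and Adgre1 were among those missing from NDLN and MLN Tregs. In TMM-scaled CPM, mean Cd68 and Cd14 were higher in heart Tregs (11.1 and 2.94) than in any lymphoid Treg group (at most 5.06 and 2.01). Their heart Treg medians were 0.0379 and 0 CPM, and their highest values 33.2 and 8.81 CPM. Mean Lyz2 was lower in heart Tregs (0.0264 CPM) than in lymphoid Treg groups (5.11 to 41.7 CPM). The 10 markers were summed in CPM of the library total, as for the other marker lists. The sum was 50.7 CPM in heart Treg 1, 0.0746 in heart Treg 2 and 0.0353 in heart Treg 3, and 15.02 to 63.5 CPM in lymphoid Tregs. Fth1 in these heart Treg libraries was 9750, 8243 and 10140 CPM, and the part of macrophages in it was not tested. The sum of 5 fibroblast markers, like Fth1, was higher in heart than in lymphoid Tregs. It was 43.9, 374.6 and 258.2 CPM in heart Treg 1 to 3 and at most 5.18 CPM in lymphoid Tregs. Within heart Tregs the order differed, since library 2 had the highest sum and the lowest Fth1. By gene, Col1a2, Col3a1 and Dcn lay above all lymphoid Tregs, and Dcn had the highest heart Treg mean (168.6 CPM, TMM-scaled). Pdgfra had 0 counts in all heart Tregs. Col1a1 overlapped, from 0.925 CPM in heart Tregs and up to 5.43 CPM in NDLN Tregs. The part of these markers in the result was not tested. Erythroid markers were lower in heart Tregs (2.02 to 30.7 CPM) than in spleen Tregs (1221 to 23810) and MLN Tregs (336 to 30080). In NDLN Tregs they summed to 0.505 to 14.2 CPM, and their part was not tested. B cell markers summed to 0.0746 to 23.4 CPM in heart Tregs and 31.8 to 99.25 CPM in MLN Tregs. They reached 235.7 to 461.6 CPM in spleen Tregs and 242.3 to 280.9 CPM in NDLN Tregs, and their part was not tested either.

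**Figure D2:**
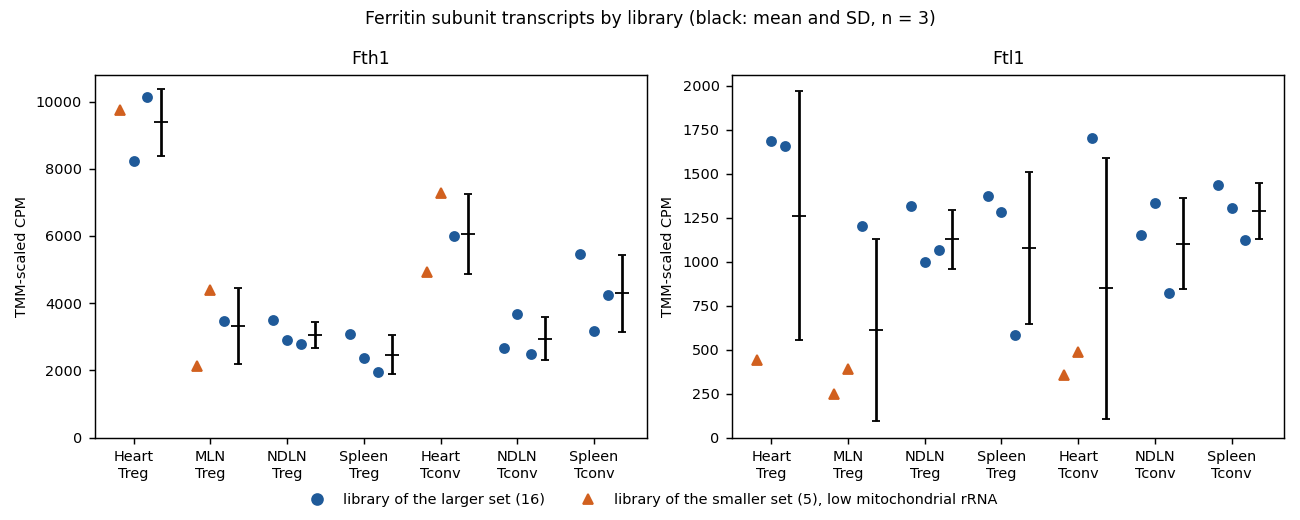
Fth1 and Ftl1 in TMM-scaled CPM, 1 point per library, by group; black bars give mean and SD of 3 libraries. The 3 heart Treg points of Fth1 (8243 to 10140) lie above all others, and the 5 libraries of low mitochondrial rRNA (triangles) hold the lowest Ftl1 values.

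Among Tconvs, too, heart held the most Fth1, with smaller steps between organs. Heart Tconvs held 4918, 7274 and 5991 CPM (6061 ± 1180), spleen Tconvs 5454, 3174 and 4253 CPM (4294 ± 1141), and NDLN Tconvs 2664, 3677 and 2502 CPM (2948 ± 636.7). Heart Tconvs lay above every NDLN Tconv library and overlapped spleen Tconvs. The test called heart over NDLN Tconvs (2.06-fold, log2 1.04, SE 0.27, edgeR adjusted p = 0.041). That call was lost on leaving out any library but NDLN Tconv 2 (adjusted p 0.065 to 0.17), with the library set as a term (0.12) and within the larger set (0.21), where heart Tconv 3 stands alone. Where the call was lost, the log2 difference was 0.89 to 1.11 with a library left out. It was 1.03 with the set term and 1.01 within the larger set. Over all 12 alternatives it ran from 0.89 to 1.23. Fibroblast markers summed to 1.44 to 117.4 CPM in heart Tconvs, at most 0.896 in NDLN Tconvs and at most 3.23 in spleen Tconvs. Macrophage and monocyte markers summed to 0.447 to 179.3 CPM in heart Tconvs, at most 18.1 in NDLN Tconvs and at most 31.5 in spleen Tconvs, and the part of either list in the result was not tested.

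Within an organ, the order of Tregs and Tconvs in Fth1 was opposite in heart and spleen. In heart all 3 Tregs lay above all 3 Tconvs (log2 0.63, SE 0.27, adjusted p = 0.6), and in spleen all 3 Tregs lay below all 3 Tconvs (log2 -0.8, SE 0.27, adjusted p = 0.62). In NDLN the Treg and Tconv ranges overlapped. Marker sums differed between these groups as well: spleen Tregs held 1221 to 23810 CPM of erythroid and 235.7 to 461.6 of B cell markers, spleen Tconvs 347.9 to 1159 and 0 to 21.95. Fibroblast markers summed to 43.9 to 374.6 CPM in heart Tregs and 1.44 to 117.4 in heart Tconvs, and the part of these lists in the order was not tested. Tested directly in edgeR, the gap in heart exceeded that in spleen by 1.43 on the log2 scale (SE 0.38), which did not pass over all genes (adjusted p = 0.6) and passed in DESeq2 (adjusted p = 0.027). Ordered by mean, the groups run heart Tregs, heart Tconvs, spleen Tconvs, MLN Tregs, NDLN Tregs, NDLN Tconvs, spleen Tregs, and every pair of neighbours overlaps except the first.

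Ferritin light chain mRNA (Ftl1; ENSMUSG00000050708, chr7:45457944-45459884) did not separate heart from lymphoid organs over all libraries. Heart Tregs held 442.8, 1685 and 1654 CPM (1261 ± 708.4), MLN Tregs 246.3, 387.4 and 1205 CPM (613 ± 517.8), NDLN Tregs 1314, 999.7 and 1066 CPM (1126 ± 165.5), and spleen Tregs 1370, 1283 and 583.6 CPM (1079 ± 431). Heart Tconvs held 355.5, 487.2 and 1701 CPM, NDLN Tconvs 1149, 1332 and 823.2 CPM, and spleen Tconvs 1434, 1305 and 1121 CPM. The wide spread followed the library set: its 5 libraries held the 5 lowest values, 246.3 to 487.2 CPM. Heart Tregs did not pass against spleen (log2 0.22, SE 0.58, adjusted p = 0.99), NDLN (0.16, SE 0.58, 0.97) or MLN Tregs (1.04, SE 0.58, 0.52), or against heart Tconvs (0.57, SE 0.58, 0.96), by edgeR's quasi-likelihood test. Within the larger set, the 3 heart libraries (1654 to 1701 CPM) lay above all 13 lymphoid libraries (583.6 to 1434 CPM), an order given as a description.

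Counts were also listed for a copy of the light chain gene, so the Ftl1 level is uncertain if reads were split between them. Ftl1-ps1 (chr13:74399694-74407346, annotated as protein coding in GENCODE M21) carries the hairpin of Ftl1 letter for letter, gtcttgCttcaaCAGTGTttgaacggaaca, at chr13:74406428-74406457 on the plus strand. It took 2.12 to 8.34 counts per 100 Ftl1 counts in the 16 libraries of the larger set (median 3.42), and 30.3 to 45.1 in the 5 of the smaller (median 34). The sets thus did not overlap in how light chain counts were divided. The processed pseudogene Ftl2-ps showed no such gap, with 2.03 to 4.2 and 2.38 to 6.82 counts per 100. With both copies added to Ftl1, the sum was 614.9 to 1826 CPM in the larger set and 349.8 to 667.5 CPM in the smaller, and the ranges overlapped from 614.9 to 667.5 CPM. Fth1 over Ftl1, in counts per kilobase of transcript, was 1.92 to 6.39 in the larger set and 8.98 to 22.9 in the smaller. Within the larger set its highest values were 6.39 and 5.1 in heart Treg 3 and 2, and heart Tconv 3 (3.67) lay within the lymphoid range. How reads matching several copies were counted is not given in the sources used here.

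**Figure D3:**
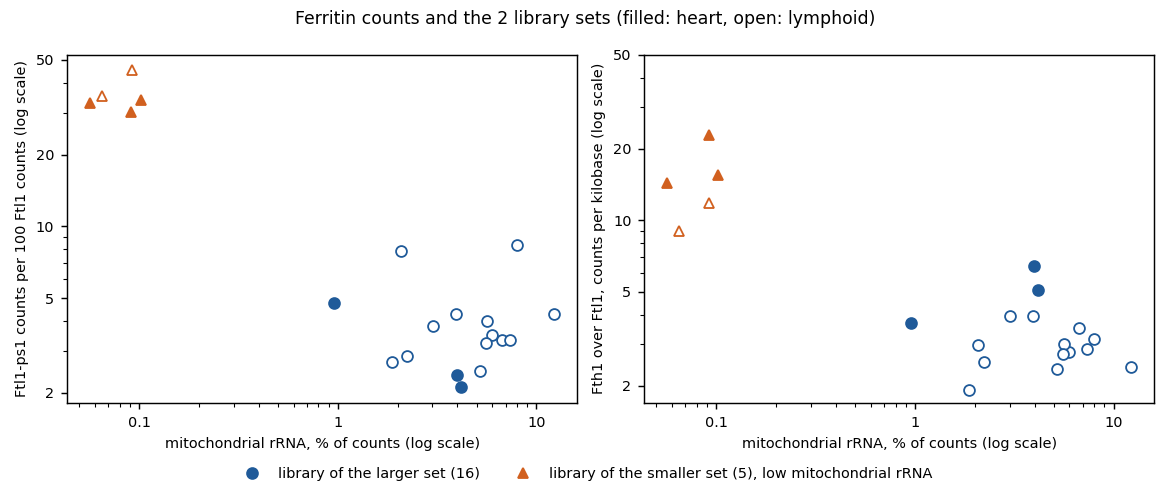
Each point is a library, placed by its share of counts from mitochondrial rRNA (x, log scale) against Ftl1-ps1 counts per 100 Ftl1 counts (left) and Fth1 over Ftl1 in counts per kilobase (right), both log scales. The 5 libraries of the smaller set lie apart at 30.3 to 45.1 on the left and 8.98 to 22.9 on the right.

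The transferrin receptor (Tfrc; ENSMUSG00000022797, chr16:32608920-32632794), which T cells raise when they divide, was present in all libraries at lower counts and with a wider spread. Heart Tregs held 78.0, 95.8 and 79.0 CPM (84.26 ± 10.02), MLN Tregs 24.1, 9.77 and 70.2 CPM, NDLN Tregs 59.9, 116.3 and 75.4 CPM (83.8 ± 29.1), and spleen Tregs 51.7, 39.9 and 40.5 CPM (44.03 ± 6.62). Heart Tregs lay above all MLN and spleen Tregs and overlapped NDLN Tregs. Heart Tconvs held 82.4, 91.4 and 28.0 CPM, NDLN Tconvs 51.9, 0.0835 and 36.2 CPM, and spleen Tconvs 72.6, 17.0 and 19.98 CPM. Every Tconv group thus had a library far from the other 2. No difference passed: log2 0.94 (SE 1.07, adjusted p = 0.86) for heart against spleen Tregs, 0.01 (SE 1.06, 1) against NDLN Tregs, 1.28 (SE 1.07, 0.81) against MLN Tregs and 0.33 (SE 1.06, 1) against heart Tconvs, by edgeR. An SE of this size on the log2 scale leaves the direction of these differences undetermined.

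Slc40a1 encodes ferroportin, the only known iron exporter of mammalian cells. It had 0 counts in 19 of 21 libraries, which allows at most 0.114 to 0.259 CPM in each. Only spleen Treg 2 (4.93 CPM, 147 counts) and MLN Treg 1 (11.6 CPM, 284 counts) held any, and the gene did not pass the filter on low counts. The other 9 members were tested.

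The iron regulatory proteins are Aco1, which is an aconitase when it carries an iron-sulfur cluster, and Ireb2, which is degraded when iron is plentiful. Ireb2 had counts in all 21 libraries, from 1.85 CPM in heart Treg 1 to 104.6 CPM in NDLN Tconv 3, with a median of 31.4. Levels within a group differed widely: heart Tregs held 1.85, 48.8 and 23.9 CPM and spleen Tregs 55.2, 19.1 and 91.5 CPM. Aco1 had 0 counts in 9 libraries and at most 10 in 13, and its highest level was 20.9 CPM, in heart Treg 1. Neither gene came out at an unadjusted p under 0.05 in any comparison.

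Ncoa4 carries ferritin to the lysosome, where its iron is released. Heart Tconvs held 18.3, 61.1 and 38.5 CPM, NDLN Tconvs 0, 0.0418 and 0.863 CPM, and spleen Tconvs 0.346, 10.1 and 10.3 CPM. All 3 heart Tconvs lay above all 6 lymphoid Tconvs. The difference from NDLN Tconvs did not pass in edgeR (log2 7.05, SE 2.13, adjusted p = 0.081) and passed in DESeq2 (adjusted p = 2.8e-05), and over the alternatives its adjusted p ran from 2.8e-05 to 0.59. Among Tregs, heart libraries held 68.7, 8.66 and 31.6 CPM, MLN 49.6, 9.41 and 13.1 CPM, NDLN 5.76, 0.174 and 0.04 CPM, and spleen 1.73, 6.71 and 5.43 CPM. Heart Tregs lay above all spleen and NDLN Tregs and overlapped MLN Tregs, and the difference from NDLN Tregs was 4.18 on the log2 scale (SE 1.85, edgeR adjusted p = 0.32, DESeq2 adjusted p = 0.024). Heart Treg 1 and MLN Treg 1, with the highest Treg levels, belong to the set of low mitochondrial rRNA. In the larger set, heart Treg 2 and 3 (8.66 and 31.6 CPM) lay above all NDLN and spleen Tregs (at most 5.76 and 6.71 CPM). Over the alternatives, the log2 difference from NDLN Tregs ran from 3.34 to 8.36. The part of the set in the overlap with MLN Tregs was not tested. Heart Tconv 3, of the larger set, held 38.5 CPM against at most 10.3 CPM in the 6 lymphoid Tconvs, which are all of that set.

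The heme oxygenases free iron from heme; Hmox1 is the inducible enzyme and Hmox2 the constitutive one. Hmox1 had 0 counts in 14 of 21 libraries. Its highest levels were 26.3 CPM in heart Treg 3, 12.2 CPM in spleen Tconv 2 and 4.46 CPM in heart Tconv 1, and the other 2 heart Tregs held 0 and 0.0791 CPM. Heart Tregs together held 696 counts against 0 in MLN Tregs, at least 207-fold higher against a floor of 3 counts over the group, but 694 of them lie in a single library (edgeR adjusted p = 0.5). Hmox2 was detected in 20 of 21 libraries, up to 108.9 CPM in heart Treg 3 with a median of 49.3 CPM. NDLN Tconv 1 held 0 counts of it while the other NDLN Tconvs held 57.5 and 85.0 CPM. Heart Treg 1 and 2 (19.6 and 20.2 CPM) were among the lowest and heart Treg 3 the highest, so the group spans the whole range seen in Tregs.

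Ferrochelatase (Fech) inserts iron into protoporphyrin in the last step of heme synthesis. NDLN Tconvs held 0 counts in all 3 libraries, and heart Tconvs 24.2, 31.8 and 61.1 CPM. The heart Tconvs together held 2712 counts, at least 684-fold higher than the floor of 3 counts over the NDLN group, and the difference passed (edgeR adjusted p = 0.03). The call was lost with the library set as a term (adjusted p = 0.075), within the larger set (0.2) and on leaving out any library but heart Tconv 3 (0.07 to 0.086). The counts themselves differed in every such subset, since each NDLN Tconv library held 0 and the heart Tconvs 538, 776 and 1398. NDLN Tregs were low too, with 0, 3.13 and 0.04 CPM, 55 counts in all against 0 in NDLN Tconvs (at least 15.2-fold higher, adjusted p = 0.41). Spleen Tregs held 38.6, 33.2 and 30.9 CPM, above all 3 spleen Tconvs (7.4, 4.44 and 25.2 CPM) and all 3 heart Tregs (17.8, 0 and 27.1 CPM). MLN Tregs held 31.8, 1.82 and 39.2 CPM and did not pass against NDLN Tregs (log2 4.52, SE 2.08, adjusted p = 0.5). Fech is abundant in the erythroid lineage, and the erythroid markers reached 1221 to 23810 CPM in spleen Tregs and at most 26.7 CPM in heart Tconvs. In MLN Treg 1 to 3 these markers summed to 336, 477.3 and 30080 CPM. In heart Tconvs the fibroblast and macrophage sums reached 117.4 and 179.3 CPM, against 0.896 and 18.1 in NDLN Tconvs. The part of these cell types in the Fech levels was not tested.

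**Figure D4:**
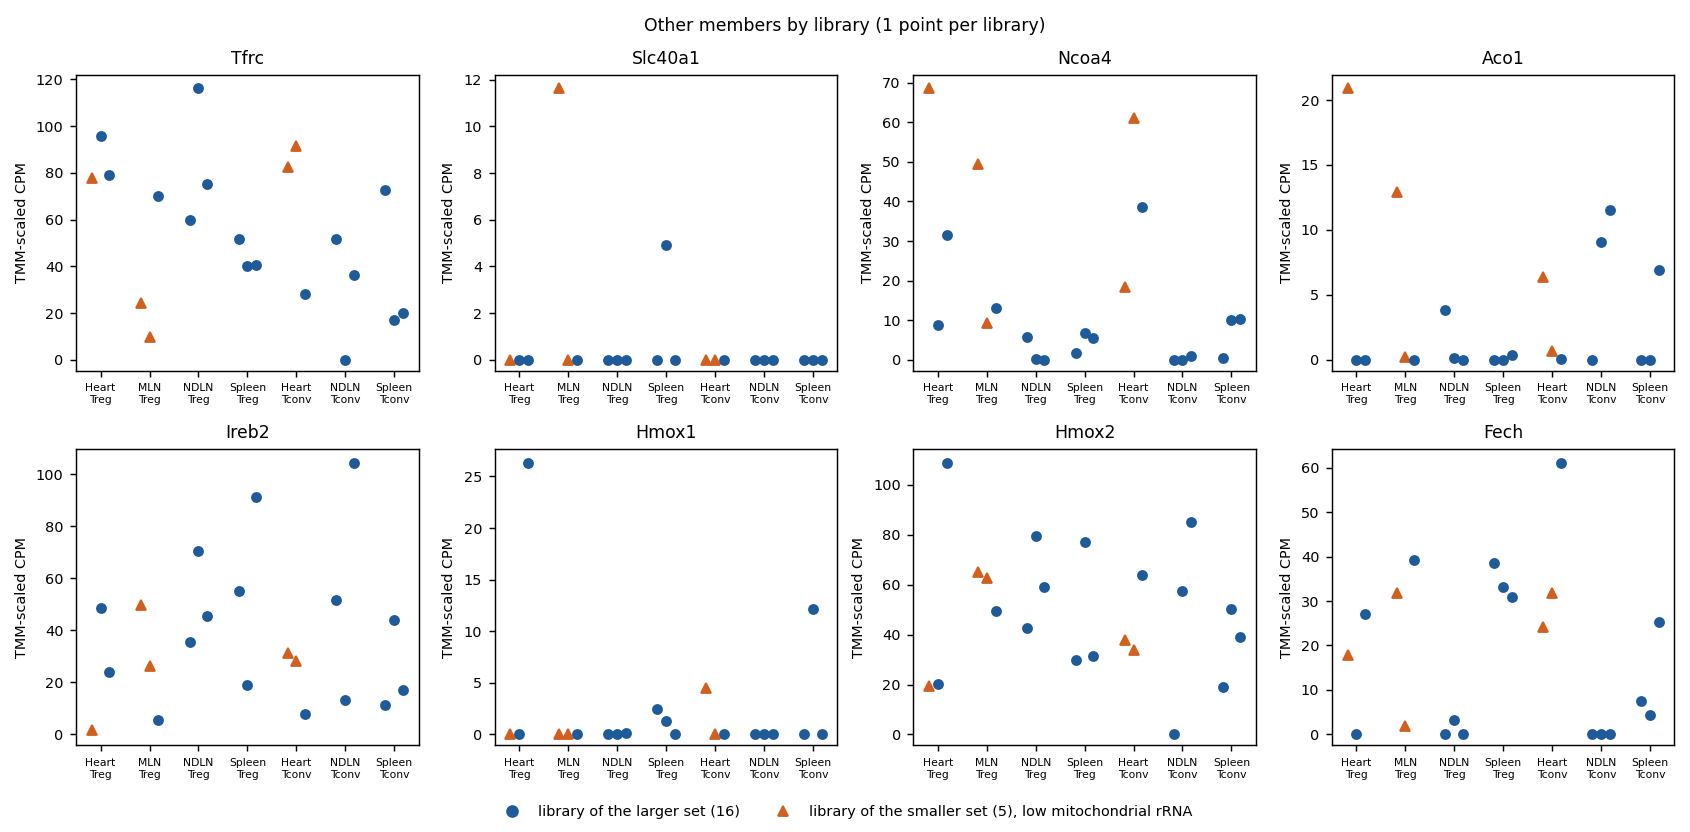
The other 8 members in TMM-scaled CPM, 1 point per library, by group; each panel has its own scale, and triangles mark the 5 libraries of low mitochondrial rRNA. Slc40a1 is above 0 in 2 libraries, Fech is at 0 in all NDLN Tconvs, and the 3 heart Tconv points of Ncoa4 (18.3 to 61.1) lie above all lymphoid Tconvs.

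Each comparison was also counted over the 9 members tested, beside the share of all 14996 genes that met the same criterion. In heart against spleen Tregs edgeR called 1 member, Fth1, as higher (0.147% of all genes called in either direction, 0.0934% as higher), and DESeq2 also 1 (9.56%). Without overlap between groups, 3 members lay higher in heart Tregs (Fth1, Tfrc and Ncoa4, beside 6.66% of all genes) and 1 lower (Fech, beside 8.83%). In heart against NDLN Tregs edgeR again called Fth1 as higher (0.533% and 0.32%), DESeq2 called 2, Fth1 and Ncoa4 (13%), and the same 2 did not overlap (8.5% as higher). Against MLN Tregs edgeR called Fth1 (0.0667% and 0.0467%) and DESeq2 2, Fth1 and Hmox1 (7.86%), while Fth1 and Tfrc lay above all MLN Tregs (4.7%).

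The edgeR test called 0 members in heart Tregs against heart Tconvs (0.0667% of all genes called), with 1 at an unadjusted p under 0.05 (7.81%) and 0 by DESeq2 (6.94%), and 1 member, Fth1, lay higher without overlap (4.07%). Spleen Tregs against spleen Tconvs gave 0 calls (0.06%), 1 at an unadjusted p under 0.05 (7.33%) and 0 by DESeq2 (6.35%), with Fech higher (7.12%) and Fth1 lower (5.67%) without overlap. NDLN Tregs against NDLN Tconvs gave 0 calls (0.3%), 1 at an unadjusted p under 0.05 (11.6%) and 2 by DESeq2, Hmox1 and Fech (12.1%), with Tfrc higher without overlap (7.99%). The Hmox1 call of DESeq2 rests on 3 counts in 1 library.

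Among Tconvs, heart against NDLN gave 2 edgeR calls, Fth1 and Fech, both higher (2.88% of all genes called, 1.54% as higher). DESeq2 called 4, adding Ncoa4 and Hmox1 (19.5%), and Fth1, Ncoa4 and Fech did not overlap (16.6%). The Hmox1 call rests on 99 counts in heart Tconv 1, while heart Tconv 2 and 3 held 0. Heart against spleen Tconvs gave 0 by edgeR (0.473%), 0 at an unadjusted p under 0.05 (12.5%) and 0 by DESeq2 (10.4%), with Ncoa4 higher without overlap (14.3%). MLN against NDLN Tregs gave 0 by edgeR (0.00667%), 1 at an unadjusted p under 0.05 (9.66%) and 1 by DESeq2 (Hmox1, on the same 3 counts; 6.65%), with Ncoa4 higher without overlap (9.4%). The Treg-Tconv gap in heart gave 0 edgeR calls against that in spleen (0.0133%), with 1 at an unadjusted p under 0.05 (7.5%) and 1 by DESeq2, Fth1 (5.97%). Against the gap in NDLN it gave 0 (0.0133%), with 1 at an unadjusted p under 0.05 (9.94%) and 1 by DESeq2, Fech (9.72%), whose NDLN Tconvs are all at 0 counts.

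The median log2 difference of the 9 members was 0.94 in heart against spleen Tregs, 1.62 against NDLN and 0.67 against MLN, beside -0.02, 0 and -0.12 over all genes. With 9 members each median is the value of a single gene. In that order the genes were Tfrc (SE 1.07), Fth1 (SE 0.28) and Aco1 (SE 3.19), so these medians do not show a shift of the members as a family. The median was 0.33 in heart Tregs against heart Tconvs, -0.25 in spleen and 0.34 in NDLN Tregs against Tconvs, beside -0.12, 0.06 and 0.04 over all genes. In heart Tconvs it was 0.33 against spleen and 1.04 against NDLN Tconvs, beside 0.27 and 0.48, and in MLN against NDLN Tregs -0.03, beside 0.15. For the Treg-Tconv gap in heart it was 0.46 against spleen and -0.21 against NDLN, beside -0.31 and -0.37.

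**Figure D5:**
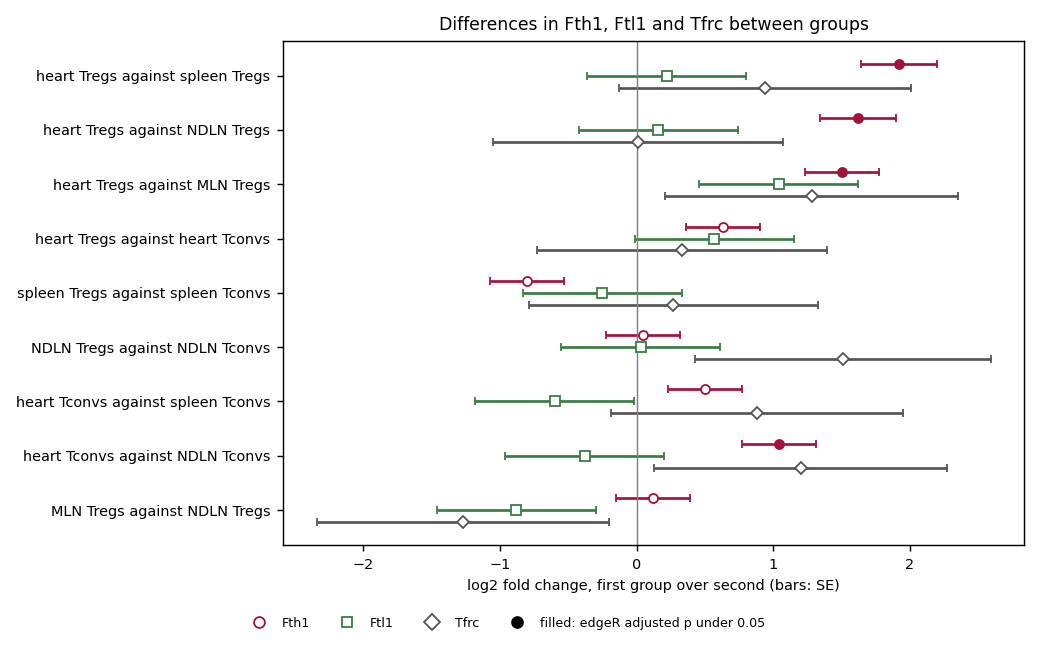
Log2 fold change of Fth1, Ftl1 and Tfrc between pairs of groups (first over second), with SE bars; filled symbols passed at an edgeR adjusted p under 0.05. The filled symbols are Fth1 in heart Tregs against each lymphoid Treg group (1.5 to 1.92) and in heart against NDLN Tconvs (1.04) and the SE bars of Tfrc are the widest.

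Libraries were also compared by order alone. Of the 9 members, 1 (Fth1) lay higher in all 3 heart Tregs than in all 9 lymphoid Tregs, where 2.27% of all genes tested did. In heart against lymphoid Tconvs it was 1 (Ncoa4, which edgeR did not call), where 9.16% of all genes did, and Fth1 overlapped. Within the larger set, Fth1 and Ftl1 (2 of 9) were higher in all 3 heart libraries than in all 13 lymphoid libraries, where 2.48% of all genes were. Within the smaller set, 2 (Fth1 and Tfrc) of 9 were higher in its 3 heart libraries than in its 2 MLN Treg libraries and 1 (Hmox2) lower, where 11.3% and 12.3% of all genes were. Fth1 was the member above the lymphoid libraries in both sets, of which the smaller holds no lymphoid Tconvs. Over all libraries together, Fth1 in heart (4918 to 10140 CPM) overlapped that in lymphoid organs (1966 to 5454 CPM).

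A wider list of 58 genes of iron and heme handling was set beside the members, and 42 passed the filter. EdgeR called 0 of the 42 in every comparison, where it called 0.00667% to 2.88% of all genes. DESeq2 called 0 to 4, beside 5.97% to 19.5% of all genes. An unadjusted edgeR p under 0.05 was reached by 1 to 5. Over all genes that share was 7.33% to 12.5% in the comparisons where edgeR called no member. The gene with the smallest adjusted p in heart Tregs against each lymphoid Treg group was Nfe2l2 (Nrf2), the oxidant-response factor that induces ferritin. Heart Tregs held 108.3, 100 and 155 CPM of it, spleen Tregs 24.9, 20.6 and 24.6 CPM, NDLN Tregs 40.9, 31.8 and 9.87 CPM, and MLN Tregs 31.4, 39.2 and 20.2 CPM. Heart Tregs lay above all 9 lymphoid Tregs. The log2 difference was 2.37 from spleen (SE 0.55, edgeR adjusted p = 0.098), 2.14 from NDLN (SE 0.54, 0.081) and 2 from MLN Tregs (SE 0.54, 0.27), none of which passed, and DESeq2 called all 3 (adjusted p = 3.3e-05, 0.00013 and 0.0013).

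Nfe2l2 was not low in lymphoid Tconvs. Spleen Tconvs held 57.7, 53.2 and 111.4 CPM and NDLN Tconvs 53.6, 122.3 and 73.8 CPM, overlapping the 117.4, 97.0 and 107.8 CPM of heart Tconvs. Tregs lay below all Tconvs in spleen (log2 -1.66, SE 0.53, edgeR adjusted p = 0.62) and in NDLN (log2 -1.6, SE 0.53, 0.33), and DESeq2 called both (adjusted p = 0.022 and 0.01). The Treg-Tconv gap in heart exceeded that in spleen by 1.84 (SE 0.74, edgeR adjusted p = 0.6) and that in NDLN by 1.77 (SE 0.74, 0.4) on the log2 scale.

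Besides Nfe2l2, 2 of the 42 lay higher in all heart than in all lymphoid Tregs, where 2.27% of all genes did. These were Bach1, the heme-sensing repressor of Hmox1 (15.5 to 47.1 against 2.19 to 14.6 CPM), and Txnrd1, a thioredoxin reductase induced by Nrf2 (21 to 35.0 against 0 to 20.5 CPM). They were picked after their values were seen. The Nrf2 targets Nqo1, Gclc, Gclm and Srxn1 overlapped between heart and lymphoid Tregs. Mean Nqo1 was lower in heart Tregs (0.25 CPM) than in spleen (16.3), MLN (10.7) and NDLN Tregs (1.55). In heart Tconvs, Slc39a14, Slc48a1, Txnrd1 and, at 1 to 50 counts, Srxn1 were among those higher than in all lymphoid Tconvs, and 2 were lower (Herc2 and Blvra), where 9.16% and 5.29% of all genes did so. Biliverdin reductase Blvra was at 59.0 ± 13.9 CPM in heart Tconvs, 122.5 ± 38.0 in NDLN Tconvs and 128.8 ± 50.2 in spleen Tconvs (log2 -1.05, SE 0.41, adjusted p = 0.19 and log2 -1.13, SE 0.41, adjusted p = 0.25 by edgeR). Gpx4, which reduces lipid peroxides, was at 694.9 ± 36.3 CPM in heart Tregs and 371.7 ± 96.9 CPM in heart Tconvs (log2 0.9, SE 0.35, adjusted p = 0.6). Herc2 was at 24.2 ± 11.5 CPM in spleen Tregs and 74.5 ± 20.5 CPM in spleen Tconvs (log2 -1.62, SE 0.59, adjusted p = 0.62). Epas1, Alas2, Srxn1, Cp, Abcb10 and Nqo1 were at 0 in many libraries and rested on few: the heart Treg level of Epas1 was 25.3 CPM in library 1 and 0.119 and 0 CPM in the others.

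The genes whose levels followed a member most closely over the 21 libraries are given as a description by Spearman's rho, among 4737 genes with a mean of at least 20 CPM. All libraries enter, so differences between groups, depth and the library set are shared by these values. For Fth1 they were Eif1 (rho 0.892), Hilpda (0.878), Prdx6 (0.864), Emp1 (0.835) and D8Ertd738e (0.825). For Ftl1 they were Atp6v0c (0.897), Gabarap (0.896), Mat2a (0.882), Ppp1ca (0.873) and Rbm38 (0.865), none of which is among those of Fth1. For Tfrc the values were lower, with Foxo1 (0.749), Specc1l (0.696), Atad2 (0.67), Hspa4l (0.669) and Zeb1 (0.666).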

How the data were processed

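Values are the whole-number count of reads per gene, deposited by the authors and not normalized. CASAVA 1.8.2, HTSeq 0.6.0, HISAT2 and the mm10 build are named in the submitters' processing notes, with strand and multi-mapping settings not given in the sources used here. Per the labels' protocols, cells were sorted with magnetic beads and by flow cytometry, and libraries were made with a SMARTer kit for very low input. Each of the 21 columns matched 1 library by name (0 columns unused).

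Genes were kept by filterByExpr (minimum count 10, minimum total 15; 14996 genes). All libraries entered 1 edgeR 4.0.16 fit in R 4.3.3 with TMM factors and a coefficient per group, tested by the robust quasi-likelihood F-test with Benjamini-Hochberg adjustment and called at an adjusted p under 0.05. SE was derived from the log2 fold change and F. DESeq2 1.42.0 was an alternative, with another scaling, no filter, a replicate block, library sets (divided at 0.5% mitochondrial rRNA) and each library left out. The fit was tested on simulated data. Members and lists were chosen with earlier results of these data known. A fold is printed for a member at an unadjusted p under 0.05, and for Fth1, Ftl1 and Tfrc in heart Tregs; other iron genes are named at an unadjusted p under 0.05, at most 3 in a comparison. One gene that this rule names is not reported here. Like patterns used log2 CPM (prior count 2). Flvcr1 and Flvcr2 were matched by ID. The common biological coefficient of variation was 1.48. Transcripts and positions come from GENCODE M21 on GRCm38, counted from 1.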

Additional observations from a re-analysis of the deposited data

Results flagged for a closer look

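The difference between Tregs and Tconvs in Fth1 points in opposite directions in heart and spleen: every heart Treg library lies above every heart Tconv library, and every spleen Treg library below every spleen Tconv library. The direct test of the gap gave 1.43 on the log2 scale (SE 0.38, edgeR quasi-likelihood adjusted p = 0.6). Over 18 alternatives it ran from 1.22 to 1.62, with adjusted p from 0.027 to 0.99.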

How the results depend on the processing

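Fth1 was higher in heart Tregs than in each lymphoid Treg group, and in heart than in NDLN Tconvs, under every alternative run, while calls were lost under the settings named beside each result and, against MLN Tregs, with the replicate block (adjusted p = 0.071); fewer libraries or genes in a fit also change the adjustment. Of 429 alternative values for named genes, 14 changed sign, 24 lost a call and 15 gained one. Ftl1 changed sign for heart Tregs against spleen and NDLN Tregs when a library was left out (lowest -0.07, highest 0.63, and -0.08 to 0.57), and against heart Tconvs within the larger set (-0.02). Tfrc changed sign against NDLN Tregs without the filter (-0.01), with the replicate block (-0.05) and when a library was left out (-0.19 to 0.32), and against heart Tconvs within the smaller set (-0.19) and when a library was left out (-0.04 to 0.61). Hmox1 against MLN Tregs was 0 within the smaller set.

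In the order heart Tregs against spleen, NDLN and MLN Tregs and heart Tconvs, spleen and NDLN Tregs against Tconvs, heart against spleen and NDLN Tconvs, MLN against NDLN Tregs, and the gaps in heart against spleen and NDLN, edgeR called 22, 80, 10, 10, 9, 45, 71, 432, 1, 2 and 2 of all genes. DESeq2 called 1352, 1834, 1112, 981, 898, 1644, 1470, 2706, 941, 844 and 1375. Without the filter the counts were 189, 351, 118, 105, 158, 339, 354, 785, 193, 60 and 178. With a library left out they were 5 to 29, 12 to 74, 1 to 28, 3 to 31, 6 to 18, 26 to 87, 3 to 187, 96 to 416, 0 to 5, 1 to 10 and 1 to 40. With RLE scaling, 2 genes were called against MLN Tregs and 1 in the NDLN gap. With the library set as a term, 12 were called in heart against spleen Tconvs, 80 in heart against NDLN Tconvs, 3 in MLN against NDLN Tregs and 1 in the NDLN gap. Within the larger set, counts were 35 in heart against NDLN Tregs, 0 against MLN Tregs, 22 and 18 in spleen and NDLN Tregs against Tconvs, 1 and 34 in heart against spleen and NDLN Tconvs, 0 in MLN against NDLN Tregs, and 0 and 1 in the gaps. Within the smaller set, they were 1 against MLN Tregs and 17 against heart Tconvs. The labels do not say whether a replicate number pairs libraries. Deviations of 63 same-numbered pairs had a median correlation of -0.000235 (-0.0614 to 0.184). Those of 126 other pairs had a median of -0.00083 (-0.228 to 0.13). With 3 libraries in a group these values cannot exclude a pairing. The replicate block gave 146 calls in heart against NDLN Tregs, 4 against MLN Tregs, 287 in heart against spleen Tconvs, 4 in MLN against NDLN Tregs, and 1 in each gap.

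Of the members, DESeq2 called 2 against NDLN Tregs, 2 against MLN Tregs, 2 in NDLN Tregs against Tconvs, 4 in heart against NDLN Tconvs, and 1 each in MLN against NDLN Tregs and the 2 gaps. No filter called 1 in NDLN Tregs against Tconvs. RLE scaling, the replicate block, the larger and the smaller set each called 0 against MLN Tregs, and the set term and the larger set 0 in heart against NDLN Tconvs. With a library left out, 0 to 1 were called against NDLN and MLN Tregs and in heart against NDLN Tconvs. Of the other iron genes, where edgeR called 0, DESeq2 called 2 against spleen Tregs, 2 against NDLN Tregs, 1 against MLN Tregs, 4 in spleen and 4 in NDLN Tregs against Tconvs, 3 and 3 in heart against spleen and NDLN Tconvs, 1 in MLN against NDLN Tregs, and 2 and 1 in the gaps; with a library left out, 0 to 2 were called in heart against NDLN Tconvs. Causes were not tested. Counts of 0 in Slc40a1, Hmox1, Aco1 and Fech limit what can be compared at this depth.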
